A study of Danio rerio with 4 samples.

Results

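Wild-type zebrafish larvae were compared at 6 and 3 days post fertilization (dpf), using only the wild-type colour of 4 dual-colour microarrays. The wild-type samples were 2 of the 4 RNA pools of the study: 1 pool from 30 whole embryos at 6 dpf and 1 pool from 30 whole embryos at 3 dpf, both of strain WIK, untreated and raised at 28 °C in E3 medium. The other 2 pools came from mutants of mst1, the gene of macrophage stimulating protein (Msp), again 30 embryos each at 6 and 3 dpf, of strain WIK and in the same medium and temperature. The allele is not given in the sources used here. Every array carried a wild-type and a mutant pool of 1 stage, and the dyes were swapped on the second array. Whether 1 RNA pool per genotype served both arrays is not spelled out in the labels. It was assumed here, so each wild-type pool counts as read once in green (Cy3) and once in red (Cy5). Every mention of 1 pool per stage rests on that assumption. The labels speak of mutant and wild-type crosses without saying whether the genotypes shared parents. Neither feeding nor the hour of collection is stated, and the labels call the animals embryos at both stages.

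In the days between these stages a zebrafish larva uses up most of its yolk, opens its gut and begins to hunt. The exocrine pancreas makes digestive enzymes as inactive zymogens, enterocytes absorb the products, and the liver takes over plasma proteins and the handling of nutrients. Much of the embryo's early cell division and skeletal matrix production is already under way at the younger stage. The comparison therefore describes the transcript side of normal larval maturation, measured in the whole animal, where fewer cells of a type and less RNA per cell cannot be told apart.

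Of 43603 probes, 27680 features with values remained after each gene was represented by its brightest probe, and 19472 passed the filter for dim probes (both arrays of at least 1 pool well above background). They comprised 11658 features with a gene symbol, 4421 probes without a gene name, and clone or locus names. The median wild-type spot signal was 146.5 in green and 168.5 in red at 6 dpf, and 154 and 184 at 3 dpf, over local backgrounds of 48.5 to 49 in green and 87 to 87.5 in red. Well above background were 60.8% of probes in green and 73.5% in red at 6 dpf, against 59.6% and 74.8% at 3 dpf, and no spot was saturated. Across features, Cy3 and Cy5 levels of the same pool correlated at r = 0.995 at either stage, whereas the pools of the 2 stages correlated at 0.932. These correlations run over genes, not over independent samples. The transcript of the mutated gene, mst1, had a log2 signal of 7.01 in the mutant and 8.14 in wild type at 6 dpf, and of 6.54 in the mutant and 7.20 in wild type at 3 dpf.

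Values below are log2 signals after normalization, given as Cy3 and then Cy5, and a change is the 6 dpf value minus the 3 dpf value. Each ± is the SD of the changes in the 2 dyes. If 1 pool served both arrays of a stage, as assumed, it covers labelling and hybridisation only. With 1 pool per stage there is no test within wild type. Members were counted by a size rule instead: a mean change of at least 1 on the log2 scale (2-fold), the same sign with at least 0.5 in each dye, and detection well above background in both dyes of the higher stage. "Higher" and "lower" are used of such values. "Rose" and "fell" are reserved for limma, fitted to all 4 pools with genotype and stage as terms, at a Benjamini-Hochberg adjusted p of at most 0.05 and an absolute change of at least 1. Its value is the mean of the wild-type and mutant changes. The fit leaves each gene 1 residual degree of freedom, and limma adds 4.87 prior degrees of freedom drawn from all features. The p-values of limma therefore rest mostly on a spread shared across features. That spread is how far the stage change differed between wild type and mutant in these 4 pools, which shared arrays. It holds no spread between pools of the same genotype and stage. Where a gene "rose by" or "fell by" a value with ±, the value is its wild-type change and only the verb reports the limma call. Whether the change differed between genotypes cannot be tested. The adjusted p alone passed for 61.2% of features, so the required size decided almost every call: 1982 features had a fitted change of at least 1, and 1981 of them were called.

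By the size rule 2258 of 19472 features (11.6%) differed between the stages, 1079 higher (5.54%) and 1179 lower (6.05%) at 6 dpf. Under median scaling of the channels, without loess or quantile normalization, the split was 736 higher and 1755 lower. That is 29.5% higher in place of 47.8%, and the median change of all features moved to -0.06 from 0.02. Limma called 1981 features (10.2%), of which 951 rose (4.88%) and 1030 fell (5.29%). With median scaling, 654 rose and 1611 fell. The tails of the 2 directions differed. A change of at least 4 on the log2 scale was reached by 39 features at the higher end and by 0 at the lower end, and a change of at least 2 by 203 and 161. The largest increases belonged to pancreatic proteases and the largest decrease to casq2, a calcium-binding protein of muscle. Members just inside the threshold had changes of 1.00001 and -1.00016, and those just outside 0.99959 and -0.99934.

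**Figure D1:**
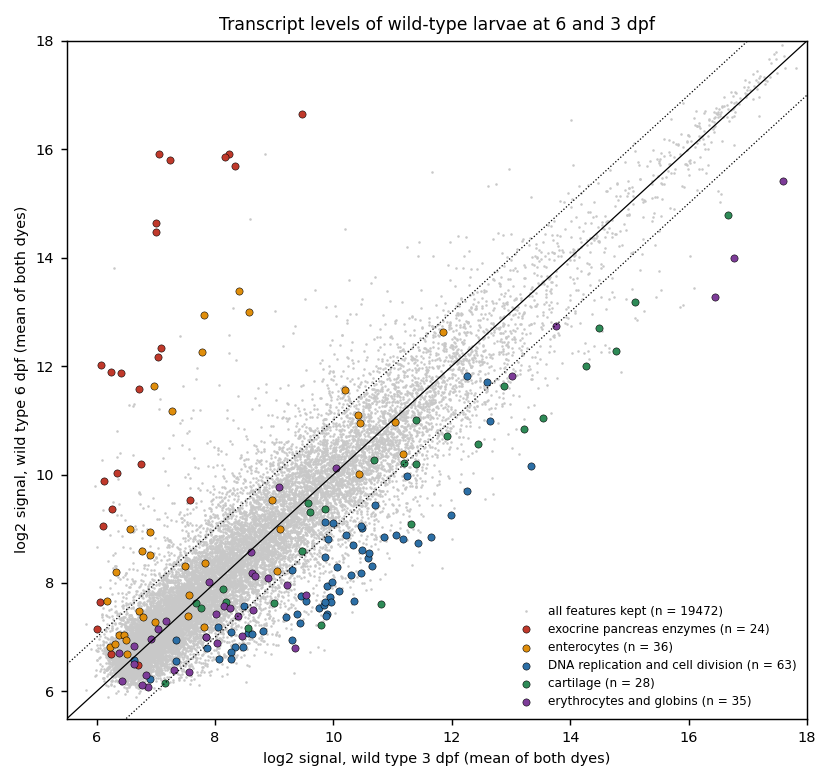
Mean log2 signal of each kept feature in the wild-type pool at 6 dpf (vertical axis) against 3 dpf (horizontal axis), with 5 gene lists coloured. The solid line marks equal levels and the dotted lines a log2 change of 1; pancreatic enzymes stand far above the line and cell division genes below it.

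The exocrine pancreas showed the largest increase of any of the 48 gene lists examined. Of 35 listed enzymes and granule proteins, 27 had a probe and 24 were kept. Among those 24, 22 were higher at 6 dpf by the size rule (5.54% of all features were) and 21 rose in limma (4.88%), 0 were lower, and the median change was 5.19, against 0.02 over all features. Over all 27 with a probe, dim ones included, the median was 4.85. The elastase gene ela3l averaged a log2 signal of 15.91 at 6 dpf, against 7.05 at 3 dpf. Its change of 8.86 ± 0.08 is a 463-fold difference (limma 8.41, adjusted p = 1.19e-05). The chymotrypsinogen gene ctrl had 15.74 and 15.87 at 6 dpf, against 7.23 and 7.26 at 3 dpf, a change of 8.56 ± 0.07. Both genes were above their 3 dpf level in either dye, which the size rule requires of every gene it counts as higher, and 1 pool per stage stands behind each value.

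Other serine protease genes followed the same course. The elastases ela2l, cela1.6 and ela2 changed by 7.70 ± 0.30, 7.68 ± 0.14 and 7.46 ± 0.11, and the trypsinogen genes prss59.1 and prss1 by 7.64 ± 0.13 and 7.20 ± 0.05. Trypsin is the protease that activates the other zymogens. The trypsinogen prss1 had 16.68 and 16.64 at 6 dpf, against 9.51 and 9.41 at 3 dpf. The chymotrypsinogen ctrb.1 had 15.63 and 15.76 at 6 dpf, against 8.32 and 8.35 at 3 dpf. Its paralogue ctrb.2 was not well above background on either 3 dpf array and was at least 181-fold higher at 6 dpf. Trypsin, chymotrypsin and elastase genes are close relatives, so a probe may also have bound transcripts of a paralogue, and the split among members is uncertain.

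Enzymes for other substrates were higher too. The carboxypeptidases cpa4 and cpb1, which trim amino acids from peptide ends, changed by 5.24 ± 0.22 and 5.14 ± 0.09. Carboxyl ester lipase cel.2 stood at 11.89 and 11.91 at 6 dpf, against 6.24 and 6.25 at 3 dpf and was at least 47.8-fold higher at 6 dpf, since it was not well above background on either 3 dpf array. The same held for the astacin metalloprotease c6ast4 (at least 55-fold) and for syncollin, sycn.2, a protein of the zymogen granule membrane (at least 12.2-fold). Amylase, amy2a, had 11.84 and 11.91 at 6 dpf, against 6.34 and 6.49 at 3 dpf, and 1 of 2 arrays at 3 dpf was above background. All of these rose in limma. By contrast, 2 of the 24 members did not pass the size rule, among them cela1.3 at 0.44 ± 0.25. The gene cpa5, which is also used as a mast cell marker in zebrafish, was higher by 3.44 ± 0.04.

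The endocrine pancreas list was near the background, with 1 of 16 kept genes higher (5.54% of all features were) and 0 lower. That gene was ins, insulin, with 9.45 and 9.46 at 6 dpf, against 7.97 and 7.91 at 3 dpf, a change of 1.51 ± 0.06 (limma 1.32, adjusted p = 0.000223). The other islet hormone genes named by the rule stayed below it, sst2 (somatostatin) at 0.83 ± 0.02 and gcga (glucagon) at 0.62 ± 0.20. The list median was 0.12, and -0.04 under median scaling.

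**Figure D2:**
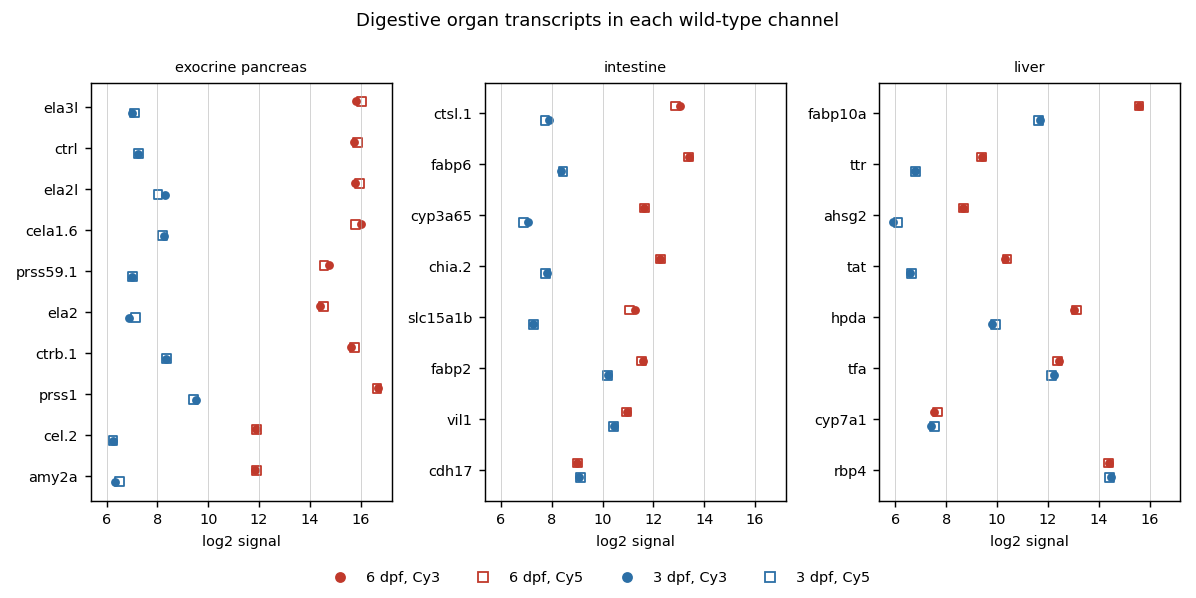
Log2 signal of pancreas, intestine and liver genes in each wild-type channel, with 6 dpf in red and 3 dpf in blue (circles Cy3, open squares Cy5). The stages stand far apart for most genes, while cdh17, cyp7a1 and rbp4 lie close together at both.

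In the intestine, 13 of 36 kept enterocyte genes (42 listed) were higher at 6 dpf and rose in limma, and 0 were lower (median 0.63), where 5.54% of all features were higher. The cathepsin L gene ctsl.1 had 13.03 and 12.87 at 6 dpf, against 7.89 and 7.73 at 3 dpf, a change of 5.14 ± 0.00 (adjusted p = 2.46e-06 in limma). Ileal bile acid binding protein, fabp6, had 13.40 and 13.37 at 6 dpf, against 8.36 and 8.44 at 3 dpf, a change of 4.98 ± 0.08. Both were above their 3 dpf level in either dye, as the size rule requires. The cytochrome P450 gene cyp3a65 (4.67 ± 0.14), the acidic chitinase chia.2 (4.49 ± 0.04) and the di- and tripeptide transporter slc15a1b (3.90 ± 0.16) also rose. The fatty acid binding protein fabp2 rose by less, 1.36 ± 0.06. Villin, vil1, a bundling protein of the brush border, was at 10.95 and 10.94 at 6 dpf, against 10.45 and 10.44 at 3 dpf, and the intestinal and renal cadherin cdh17 showed a difference of -0.10 ± 0.01. Of the 8 kept genes of goblet and enteroendocrine cells, pyya (peptide YY) and chga (chromogranin A) were at 0.04 ± 0.00 and 0.52 ± 0.05, and agr2, a disulphide isomerase of mucus-secreting cells, fell by 3.09 ± 0.14 (6.71 and 6.80 at 6 dpf, against 9.70 and 9.99 at 3 dpf). The hatching gland list also held agr2, as the only lower gene of 7 kept, so its decrease cannot be assigned to the intestine.

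Hepatocyte transcripts were higher in 2 groups, secreted proteins and amino acid metabolism. Of 31 kept genes in the plasma protein list, 15 were higher (5.54% of all features were), 15 rose (4.88%) and 0 were lower. Their median change was 0.87. The liver fatty acid binding protein fabp10a had 15.59 and 15.59 at 6 dpf, against 11.70 and 11.63 at 3 dpf, a 15.2-fold difference. Transthyretin (ttr), a carrier of thyroid hormone, changed by 2.60 ± 0.03 and plasminogen (plg) by 2.48 ± 0.00. The fetuin gene ahsg2 was not well above background on either 3 dpf array and was at least 5.34-fold higher. Transferrin, tfa, had 12.42 and 12.39 at 6 dpf, against 12.26 and 12.13 at 3 dpf, a difference of 0.21 ± 0.07. The list thus ran from near no difference to 3.93 for fabp10a, which binds fatty acids inside hepatocytes and is not a plasma protein. The other kept members stayed below 3 log2 units.

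Among 25 kept genes of liver metabolism and bile acids, 11 were higher (5.54% of all features were) and 1 was lower (6.05%). In limma 13 rose and 1 fell (median 0.94). The tyrosine breakdown enzymes tat (tyrosine aminotransferase) and hpda (4-hydroxyphenylpyruvate dioxygenase) changed by 3.75 ± 0.01 and 3.22 ± 0.04. Signals of tat were 10.33 and 10.39 at 6 dpf, against 6.59 and 6.63 at 3 dpf. The glyoxylate aminotransferase agxtb changed by 3.54 ± 0.08, the gluconeogenic enzyme pck1 by 2.72 ± 0.07 and the tryptophan dioxygenase tdo2a by 1.77 ± 0.15, all of which rose. Phenylalanine hydroxylase, pah, stayed under the threshold at 0.94 ± 0.07. The gene cyp7a1, whose product limits the rate of bile acid synthesis, was at 7.54 and 7.66 at 6 dpf, against 7.40 and 7.52 at 3 dpf, a small difference in both dyes. The member that was lower was the sulfotransferase sult2st1 (-1.53 ± 0.25).

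Genes of energy balance and of the response to fasting and glucocorticoids included ucp1 and igfbp1b, which were among the strongest increases outside the pancreas. Uncoupling protein 1, ucp1, a mitochondrial proton carrier, had 14.62 and 14.81 at 6 dpf, against 8.49 and 8.68 at 3 dpf, a change of 6.13 ± 0.00 or 69.9-fold (limma 5.73, adjusted p = 2.25e-05). The insulin-like growth factor binding proteins igfbp1b and igfbp1a, induced by fasting and low insulin in vertebrates, changed by 5.14 ± 0.02 and 1.93 ± 0.04, and ucp3 by 3.56 ± 0.17. The glucocorticoid-induced genes klf9, a transcription factor, and fkbp5, a receptor co-chaperone, changed by 2.95 ± 0.19 and 2.14 ± 0.07. In the list of 30 kept genes, 14 were higher (5.54% of all features were) and 4 lower (6.05%), with 14 that rose and 4 that fell. Among genes of fatty acid oxidation, the carnitine palmitoyltransferase cpt1aa was at -0.34 ± 0.06, and hadhaa and hadhab, subunits of the mitochondrial trifunctional protein, fell by 1.32 ± 0.10 and 2.04 ± 0.02.

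Yolk lipid export and lipid synthesis gave another picture. Of 17 kept genes of yolk and lipoprotein export, 1 was higher (5.54% of all features were) and 2 were lower (6.05%). Their median of 0.16 turned to -0.05 with the mean of all probes and to -0.03 without the second 6 dpf array. The triglyceride synthase dgat2 rose by 2.04 ± 0.06, while the apolipoprotein genes apoa1a and apoea fell by 1.31 ± 0.01 and 1.02 ± 0.11. Apolipoprotein B, apobb.1, was at 0.59 ± 0.03, apoeb at 0.86 ± 0.02, and the vitellogenin gene vtg1 at -0.14 ± 0.49, with dyes that disagreed more than its change. Cholesterol and fatty acid synthesis had 10 of 29 kept genes lower and 1 higher (8 fell and 1 rose), with a median of -0.63. Mevalonate pathway enzymes led: mvda changed by -2.12 ± 0.17, the HMG-CoA synthase hmgcs1 by -2.00 ± 0.05, and the sterol enzymes ebp and lss by -1.90 ± 0.10 and -1.60 ± 0.31. When the probes of a gene were averaged, hmgcs1, ebp and lss no longer passed in limma (fitted changes of -0.73 for hmgcs1 and -0.62 for lss, and just under the threshold for ebp). The reductase hmgcra was at -0.58 ± 0.01 and fatty acid synthase, fasn, at 0.22 ± 0.33.

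**Figure D3:**
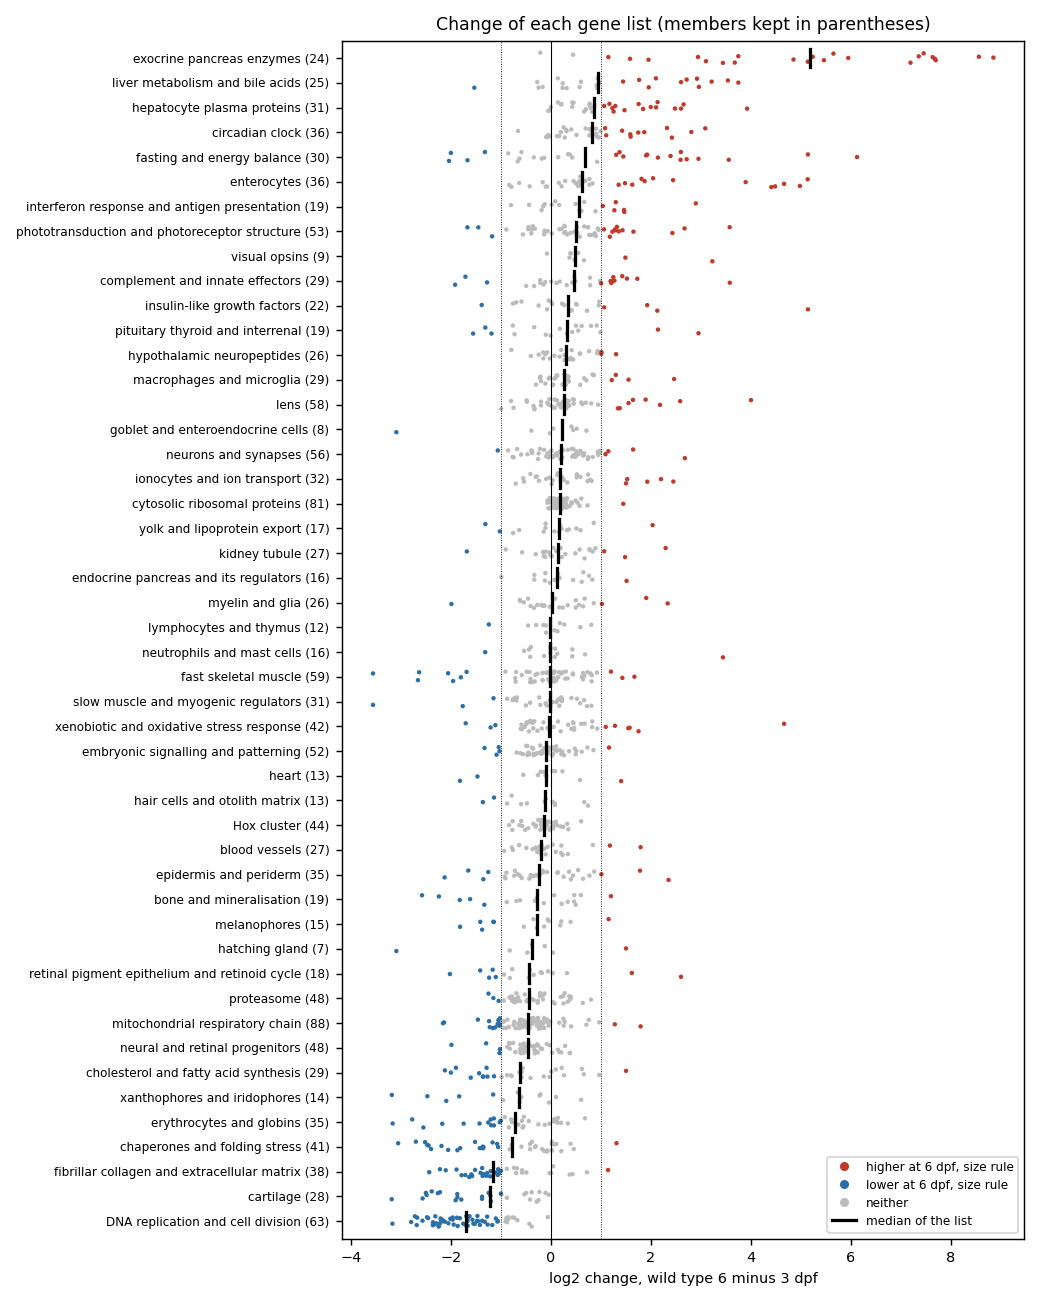
Log2 change in wild type, 6 minus 3 dpf, of every kept member of each gene list, ordered by the list's median (black bar). Points in red and blue passed the size rule as higher or lower; exocrine pancreas stands at the top with a median of 5.19 and DNA replication and cell division at the bottom with -1.70.

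Circadian clock genes were higher at 6 dpf in 11 of 36 kept and lower in 0, and 13 rose, where 5.54% of all features were higher and 4.88% rose. The median was 0.81. The nuclear receptor nr1d1 (Rev-erb alpha), which represses bmal1 genes, had 10.54 and 10.54 at 6 dpf, against 7.38 and 7.52 at 3 dpf, a change of 3.09 ± 0.09. The period gene per1b had 11.55 and 11.80 at 6 dpf, against 8.80 and 8.93 at 3 dpf, a change of 2.81 ± 0.08, and the transcriptional repressors bhlhe40 and bhlhe41 changed by 2.42 ± 0.05 and 2.32 ± 0.05. These 4 genes encode repressors of the clock. In contrast, bmal1a, the positive partner of clock proteins, was at -0.10 ± 0.03. Each stage is 1 collection time of 1 pool, the light regime and hour are not stated, and a difference of phase and one of level cannot be told apart.

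The eye gave different results for photoreceptors, lens and pigment epithelium. Of 53 kept phototransduction and photoreceptor genes, 12 were higher (5.54% of all features were) and 3 lower (6.05%). In limma 13 rose and 3 fell, and the list median was 0.51. The cone phosphodiesterase subunit pde6ha changed by 2.67 ± 0.27, and pde6ga, a gamma subunit, had 10.98 and 11.04 at 6 dpf, against 7.44 and 7.43 at 3 dpf, a change of 3.58 ± 0.05. The retinoid binding protein of the interphotoreceptor matrix, rbp3, changed by 2.43 ± 0.09, the cone phosphodiesterase pde6c by 1.43 ± 0.09 and cone transducin gnat2 by 1.06 ± 0.03. Rod transducin gnat1 was at 0.52 ± 0.11. The fatty acid elongase elovl4b fell by 1.67 ± 0.03.

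Among 9 kept visual opsins, 2 passed as higher, where 5.54% of all features were higher. The red opsin opn1lw1 had 10.76 and 10.77 at 6 dpf, against 7.51 and 7.56 at 3 dpf, a change of 3.23 ± 0.03 (limma 3.70, adjusted p = 6.95e-05), and the green opsin opn1mw2 changed by 1.49 ± 0.07. Rhodopsin, rho, and the ultraviolet opsin opn1sw1 did not pass the size rule, at 0.40 ± 0.04 and 0.55 ± 0.11. Rhodopsin had 15.49 and 15.90 at 6 dpf, against 15.07 and 15.53 at 3 dpf, and opn1sw1 had 14.03 and 13.95 at 6 dpf, against 13.40 and 13.47 at 3 dpf. The opsins of the tandem arrays are similar in sequence, so cross-hybridisation among them cannot be set apart.

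The lens list held 58 kept genes with a median of 0.26 in wild type, and 8 were higher (5.54% of all features were) and 0 lower. Crystallins are the soluble proteins that fill lens fibres. The gamma crystallin crygm1 had 13.03 and 12.99 at 6 dpf, against 9.12 and 8.89 at 3 dpf, which is 16.1-fold higher, followed by crygn1 (2.59 ± 0.12), crygm2f (2.18 ± 0.00) and the small heat shock crystallin cryaa (1.90 ± 0.13). With the mean of all probes crygm2f was no longer called (0.98). Most others moved little, among them crybb1 at 0.61 ± 0.21 and the fibre aquaporin mipa at 0.29 ± 0.14. In the mutant the lens median was -0.35, and limma, which averages the genotypes, counted 8 that rose and 3 that fell.

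Genes of the retinal pigment epithelium, melanophores and other pigment cells were lower more often than higher. Over all features, 6.05% were lower and 5.54% higher. Of 18 kept genes of the retinal pigment epithelium and retinoid cycle, 5 were lower and fell and 2 were higher and rose. The retinoid isomerase rpe65a had 12.26 and 12.30 at 6 dpf, against 14.30 and 14.31 at 3 dpf, a change of -2.02 ± 0.02, and the retinaldehyde binding protein rlbp1b fell by 1.42 ± 0.08. The photoreceptor retinol dehydrogenase rdh8b rose by 1.62 ± 0.18. In the melanophore list, 5 of 15 were lower and 1 was higher, led by pmelb (-1.82 ± 0.02), tyrp1b (-1.41 ± 0.05) and dct (-1.38 ± 0.04), enzymes and fibril proteins of the melanosome. Tyrosinase, tyr, the first enzyme of melanin synthesis, was at -0.06 ± 0.22, and pmela, a brighter paralogue of pmelb, at -0.28 ± 0.05. Of 14 kept xanthophore and iridophore genes 5 were lower, 6 fell and 0 were higher. The pteridine synthesis enzyme gch2 had 8.79 and 8.84 at 6 dpf, against 12.03 and 11.96 at 3 dpf, a change of -3.18 ± 0.08 or 9.09-fold lower, and slc2a11b, aox5 and the iridophore purine enzyme pnp4a fell by 2.47 ± 0.05, 2.09 ± 0.06 and 1.84 ± 0.10. With the mean of all probes slc2a11b was not called (-0.88).

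DNA replication and cell division was the list with the lowest median. Of 63 kept genes, 52 were lower (6.05% of all features were), 49 fell (5.29%) and 0 were higher, with a median change of -1.70. The nuclear import receptor kpna2 had 10.21 and 10.11 at 6 dpf, against 13.32 and 13.35 at 3 dpf, a change of -3.17 ± 0.09 or 9.01-fold lower (limma -2.86, adjusted p = 5.74e-05). The replicative helicase subunits mcm5 and mcm2 fell by 2.80 ± 0.06 and 2.72 ± 0.01. Signals of mcm5 were 8.85 and 8.84 at 6 dpf, against 11.61 and 11.68 at 3 dpf. Cyclin B1, ccnb1, which drives entry into mitosis, had 7.72 and 7.61 at 6 dpf, against 10.47 and 10.23 at 3 dpf, and the DNA polymerase clamp pcna changed by -2.15 ± 0.02. Each of these was below its 3 dpf level in both dyes, which the size rule requires of every gene it counts as lower. Outside the list, the ribonucleotide reductase subunit rrm2l fell by 2.99 ± 0.12, and the origin recognition gene orc6, not well above background on either 6 dpf array, was at least 2.74-fold lower. Not every gene moved: tk1 was at -0.38 ± 0.01 and ccnd1 at -0.43 ± 0.22.

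Counts past the thresholds for genes that mark neural and retinal progenitors were near the background, although most members had a small negative change. Of 48 kept, 4 were lower (6.05% of all features were) and 2 fell (5.29%), with 0 higher and a median of -0.46. The change was below 0 for 41 of the 48, with quartiles of -0.61 and -0.26, against -0.31 and 0.34 over all features. Radial glial fabp7a fell by 1.99 ± 0.07 (14.09 and 13.98 at 6 dpf, against 16.03 and 16.02 at 3 dpf) and the Notch ligand dlb by 1.30 ± 0.07. The stem cell factor sox2 and the Notch target her4.1 were at -0.26 ± 0.01 and -0.32 ± 0.19, and neurog1 at -0.87 ± 0.06.

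Genes of mature neurons and glia were past the size rule at about the share of all features, 11.6%, or somewhat above it for glia. In the neuronal list of 56 kept genes, 4 were higher and 1 was lower, 3 rose and 1 fell, and the median was 0.21. The calcium-binding protein pvalb7 had 13.17 and 13.12 at 6 dpf, against 10.48 and 10.44 at 3 dpf, a change of 2.68 ± 0.01. The NMDA receptor subunit grin1b rose by 1.65 ± 0.07, and the GABA-synthesizing enzyme gad1b by 1.15 ± 0.05, although the fitted change of gad1b was 0.92 with the mean of all probes and 0.86 under median scaling. The synaptic genes snap25a and syt1a were at 0.75 ± 0.08 and 0.63 ± 0.01. Of 26 kept genes of myelin and glia, 3 were higher and 1 lower. The lower one was fabp7a, which is also on the progenitor list and was counted there. Myelin proteins plp1b and mpz changed by 2.34 ± 0.05 and 1.91 ± 0.10, whereas mbpb was at 0.24 ± 0.03.

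Cartilage was the list with the second lowest median, -1.23. Of 28 kept genes 17 were lower (6.05% of all features were) and fell (5.29%), and 0 were higher. The link protein hapln1a, which ties hyaluronan to proteoglycans, had 7.78 and 7.45 at 6 dpf, against 10.86 and 10.73 at 3 dpf, a change of -3.19 ± 0.14. Matrilin 1, matn1, fell by 2.50 ± 0.06, the collagen IX genes col9a1b and col9a1a by 2.49 ± 0.04 and 1.38 ± 0.03, and the homeobox gene barx1 by 2.57 ± 0.02. The main cartilage collagen col2a1a had 14.93 and 14.64 at 6 dpf, against 16.68 and 16.65 at 3 dpf. Both hapln1a and col2a1a were below their 3 dpf level in either dye, as the size rule requires. The cartilage transcription factor sox9a was at -0.28 ± 0.18.

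Bone genes were mixed. Of 19 kept, 1 was higher (5.54% of all features were) and 5 were lower (6.05%). Osteocalcin, bglap, a protein of mineralized matrix, rose by 1.20 ± 0.13, with fitted changes of 0.72 with the mean of all probes, 0.78 under median scaling and 0.97 without background subtraction. The hypertrophic collagen col10a1a fell by 2.58 ± 0.14 (7.58 and 7.33 at 6 dpf, against 10.06 and 10.01 at 3 dpf), periostin, postnb, by 2.24 ± 0.01, and the osteoblast membrane gene ifitm5, not well above background on either 6 dpf array, was at least 3.54-fold lower. The osteoblast factor sp7 was at -0.28 ± 0.11.

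Genes of the general matrix and of protein folding were lower as well, where 6.05% of all features were lower and 5.54% higher. In the list of fibrillar collagens and extracellular matrix, 24 of 38 kept genes were lower and 1 was higher, and 21 fell and 1 rose (median -1.15). Actinodin 1, and1, a protein of the larval fin fold, fell by 2.43 ± 0.14, the microfibril gene mfap2 by 2.22 ± 0.02, and the lysyl hydroxylase plod1a by 1.89 ± 0.06. The collagen I genes col1a1a and col1a2 changed by -1.79 ± 0.02 and -1.41 ± 0.11. Of 41 kept chaperone genes, 19 were lower and 1 higher (18 fell and 1 rose), and the lowest values belonged to chaperones of the endoplasmic reticulum. Calreticulin calr3b had 9.68 and 9.60 at 6 dpf, against 12.74 and 12.65 at 3 dpf, a change of -3.06 ± 0.00. The lumenal chaperone hspa5 (BiP) changed by -2.40 ± 0.05, its partner dnajb11 by -2.52 ± 0.06, the disulphide isomerase pdia6 by -2.47 ± 0.06 and manf by -2.70 ± 0.06. The cytosolic stress genes hsp70l and hsp90aa1.1 did not pass the size rule, at 0.46 ± 0.01 and -0.30 ± 0.16. Among 9 kept small heat shock genes with symbols that start with hspb, 3 were higher and 2 lower. Outside the lists, the reticulum proteins rcn3 and fkbp7 fell by 2.87 ± 0.10 and 2.84 ± 0.00.

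**Figure D4:**
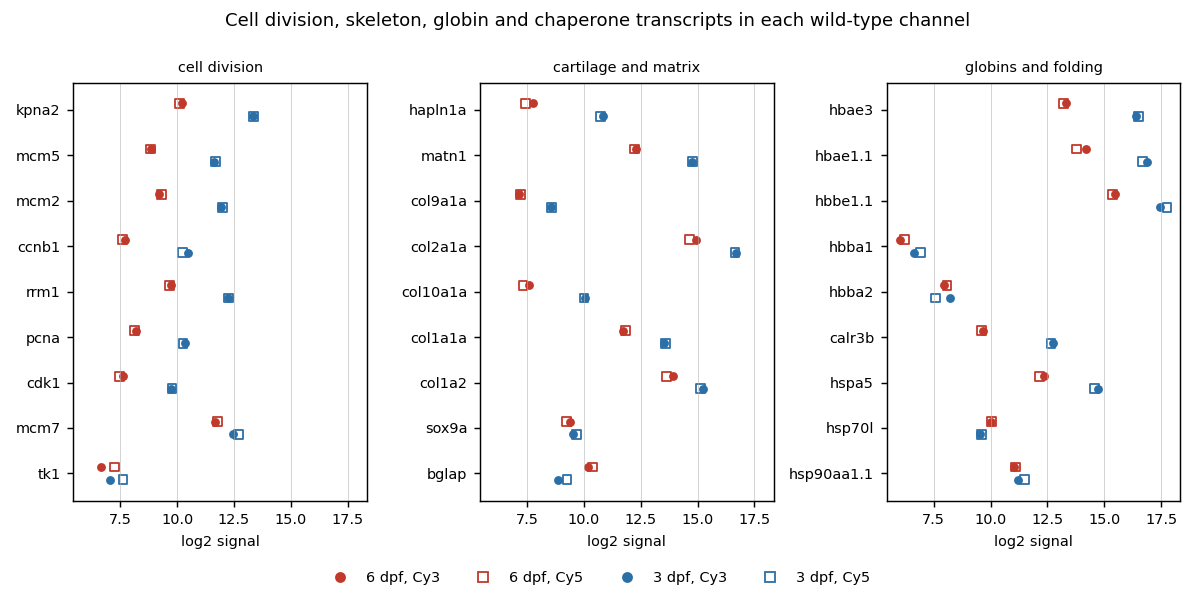
Log2 signal of cell division, skeletal matrix, globin and chaperone genes in each wild-type channel, with 6 dpf in red and 3 dpf in blue (circles Cy3, open squares Cy5). Most genes lie lower at 6 dpf in both dyes, while bglap and hsp70l lie higher and hbba2 and sox9a differ little.

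The fast muscle list had a median near 0, with a few members far from it. Of 59 kept fast muscle genes, 3 were higher (5.54% of all features were) and 7 lower (6.05%). In limma 4 rose and 7 fell, and the list median was -0.02. The genes casq2 and casq1a, which encode calcium-binding proteins of the sarcoplasmic reticulum, had the lowest values. Signals of casq2 were 8.24 and 8.30 at 6 dpf, against 11.63 and 12.03 at 3 dpf, a 11.8-fold decrease (limma -3.11, adjusted p = 9.95e-05), and casq1a fell by 2.66 ± 0.01. The actin gene acta1b had 13.53 and 13.36 at 6 dpf, against 16.07 and 16.09 at 3 dpf, a change of -2.64 ± 0.13, and the troponin tnnt3a fell by 2.06 ± 0.09. In contrast the myosin light chain mylpfa was at 0.08 ± 0.03 and creatine kinase ckma at 0.44 ± 0.28. Slow muscle and myogenic regulators had 0 higher and 3 lower of 31 kept. The lowest was again casq2, which is on both lists, and myoglobin (mb) was at -1.15 ± 0.10. The slow myosin smyhc1 was at -0.01 ± 0.07 and myod1 at 0.20 ± 0.18.

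Heart genes split likewise, where 5.54% of all features were higher and 6.05% lower. Of 13 kept, the calcium pump atp2a2a rose by 1.41 ± 0.04, and the atrial light chain myl4 and the transcription factor hand2 fell by 1.82 ± 0.07 and 1.47 ± 0.05. The myosin light chain myl7 had 9.16 and 9.15 at 6 dpf, against 9.41 and 9.41 at 3 dpf, and the natriuretic peptide nppa was at -0.21 ± 0.10. The list median was -0.10 in wild type and 0.14 in the mutant.

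Red cell genes were lower in 13 of 35 kept (6.05% of all features were) and higher in 0, and 8 fell (median -0.71). Embryonic globins accounted for the largest differences: hbae3 had 13.32 and 13.22 at 6 dpf, against 16.38 and 16.50 at 3 dpf, a change of -3.17 ± 0.16, hbae1.1 had 14.19 and 13.79 at 6 dpf, against 16.86 and 16.67 at 3 dpf, and hbbe3 and hbbe1.1 changed by -2.55 ± 0.30 and -2.17 ± 0.33. The difference was more than 2 log2 units in either dye for hbae3, hbae1.1 and hbbe3. The adult-type beta globin genes hbba1 and hbba2 were at -0.65 ± 0.09 and 0.14 ± 0.54. The heme synthesis enzyme alas2 had 7.63 and 7.15 at 6 dpf, against 8.43 and 8.36 at 3 dpf, past the size rule but not called by limma. Globin genes are near-identical within their clusters, and probes may report paralogues.

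White cell markers were past the size rule at about the share of all features (11.6%). Of 16 kept genes of neutrophils and mast cells, cpa5 was higher and lysozyme (lyz, -1.31 ± 0.04) lower, and mpx and npsn were at -0.40 ± 0.16 and -0.42 ± 0.20. Among 29 kept macrophage and microglia genes, 4 were higher and rose and 0 were lower: the granulins grna.2 (2.47 ± 0.07) and grna.1 (1.55 ± 0.16), the protease lgmn (1.22 ± 0.03) and cd74a, the invariant chain of MHC class II, at least 2.18-fold higher because it was not well above background on either 3 dpf array. Defining macrophage genes mpeg1.1 and csf1ra were at -0.22 ± 0.13 and -0.21 ± 0.26. Only 12 of 25 lymphocyte and thymus genes with a probe were kept, with lck at 0.07 ± 0.15 and rag2 at -0.15 ± 0.19. The other 13 were dim in every pool, so lymphocytes were poorly covered.

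Humoral and interferon-related genes included several that rose. Of 29 kept complement and innate effector genes, 10 were higher (5.54% of all features were) and rose and 3 were lower and fell. The cytokine feedback inhibitor socs3a had 11.70 and 11.59 at 6 dpf, against 8.06 and 8.07 at 3 dpf, a change of 3.58 ± 0.09, and complement C3, c3a.2, changed by 1.73 ± 0.03. The beta defensin defbl1 fell by 1.92 ± 0.07, and irg1l fell by 1.71 ± 0.57, a wide spread between dyes. In the interferon and antigen presentation list, 6 of 19 kept were higher and 0 lower, among them socs1a (2.90 ± 0.03), the beta-2 microglobulin relative b2ml (1.47 ± 0.03) and stat1a (1.46 ± 0.02). The ubiquitin-like isg15 was at 0.09 ± 0.18.

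Skin, ion transport and kidney lists each held genes past the size rule, where 5.54% of all features were higher and 6.05% lower. Of 35 kept epidermal genes 3 were higher and 4 lower, with the keratins krt97 and krt15 at 2.35 ± 0.15 and 1.78 ± 0.00, agr1 at -2.13 ± 0.08 and the periderm keratin krt4 at -0.16 ± 0.05. The hatching enzyme he1.2, made by hatching gland cells that disappear after hatching, was at 6.12 and 6.14 at 6 dpf, against 6.27 and 6.75 at 3 dpf. Ionocyte genes were higher in 5 of 32 kept and lower in 0, and 6 rose. Stanniocalcin stc1l, a hormone that lowers calcium uptake, changed by 2.45 ± 0.05, and the sodium pump subunit atp1a1a.4 by 1.93 ± 0.11. The ammonia transporter rhcga had 9.41 and 9.56 at 6 dpf, against 7.26 and 7.30 at 3 dpf, while the ammonium transporter rhcgl1 was at least 2.57-fold higher (not well above background on either 3 dpf array). The calcium channel trpv6 was at -0.55 ± 0.16. In the kidney list of 27, the scaffold pdzk1 (2.30 ± 0.02) and the cation transporter slc22a2 (1.48 ± 0.03) rose and the aquaporin aqp8b fell by 1.68 ± 0.08.

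Endocrine lists held genes that differed in both directions. Of the 22 kept insulin-like growth factor genes 4 were higher (5.54% of all features were) and 1 lower (6.05%). The growth hormone receptor ghrb rose by 2.13 ± 0.13 and igfbp2a fell by 1.38 ± 0.04, whereas igf1 was at -0.25 ± 0.16 and igf2a at 0.52 ± 0.05. In the pituitary, thyroid and interrenal list 19 genes were kept and 17 were dim. Of the 19, 2 were higher and 3 lower, 2 rose and 1 fell, and the median was 0.32. The higher ones were klf9 and fkbp5, given above. Growth hormone gh1 (-1.19 ± 0.15) and pro-opiomelanocortin pomca (-1.31 ± 0.06) were lower by the size rule without a limma call. The steroid enzyme cyp17a1 fell by 1.56 ± 0.21, and prolactin, prl, was at -0.10 ± 0.18. Hypothalamic neuropeptide Y, npy, rose by 1.30 ± 0.10, and agrp, which stimulates feeding, was at 0.17 ± 0.20.

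The remaining lists covered basic cell functions, body patterning, vessels and stress responses, where 5.54% of all features were higher and 6.05% lower. Of 81 kept cytosolic ribosomal protein genes 1 was higher and 0 lower (median 0.18), that one being rps27l at 1.45 ± 0.35, whose limma call was lost under median scaling (0.80) and without the second 6 dpf array (0.96). None of 44 Hox genes passed the size rule or limma, where 11.6% and 10.2% of all features did, with a median of -0.13. An unadjusted limma p of at most 0.05 was found for 22 of the 44. That is a smaller share than the 61.2% of all features that passed by adjusted p alone. Respiratory chain genes had 13 of 88 lower and 2 higher (median -0.45). Cytochrome c, cycsb, and the ATP synthase subunit atp5mc1 fell by 2.14 ± 0.03 and 2.16 ± 0.03, and the muscle cytochrome oxidase subunit cox6a2 rose by 1.79 ± 0.02. The proteasome list, chosen by symbol, had 3 of 48 lower, near the background, and 0 higher (median -0.45). The 3 were the subunit genes psmb5 and psmc1a, at -1.25 ± 0.13 and -1.05 ± 0.05, and psmc3ip at -1.15 ± 0.06, whose product binds a subunit and is not one. Blood vessel genes had 2 of 27 higher, the smooth muscle genes tagln (1.79 ± 0.04) and acta2 (1.18 ± 0.09), and the endothelial genes kdrl and cdh5 were at -0.19 ± 0.17 and -0.22 ± 0.14. Of 52 kept signalling and patterning genes 1 was higher and 4 lower, with shha at -0.43 ± 0.08 and aldh1a2, a retinoic acid synthase, at -1.33 ± 0.13. In the xenobiotic and oxidative stress list 6 of 42 were higher and 3 lower, among them cyp1a at 1.28 ± 0.07 and prdx1 at -1.71 ± 0.03.

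Genes below background at one stage add to the extremes. Some features with a symbol were well above background on both arrays of 6 dpf and on no array of 3 dpf. Among these, the largest bounds after ctrb.2, c6ast4 and cel.2 were those of calcoco1b and clul1. The gene calcoco1b, a relative of an autophagy receptor, was at least 22.1-fold higher, and clul1, a clusterin relative of the retina, at least 15.6-fold higher. In the other direction the endoplasmic peroxidase gpx7 was at least 7.88-fold lower, enam, named after a tooth enamel protein of mammals, at least 5.06-fold, creld2 at least 3.66-fold and gng13a, a G protein subunit, at least 2.73-fold lower. In all, 220 features were above background at 6 dpf alone, against 176 at 3 dpf alone, and 15450 at both stages. The offset added in background correction compresses the changes of dim genes.

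Coverage was partial for some of the genes named above. On 1 of 2 arrays at 6 dpf were agr2, aqp8b, csf1ra, gh1, hbbe3, lss, myl4, sp7 and tk1 well above background, and on 1 of 2 arrays at 3 dpf amy2a, gcga, grna.1, sst2 and tat. For rag2, tyr and vtg1 it was 1 of 2 at each stage. The genes he1.2, isg15, nppa and prl were not well above background in wild type on either 6 dpf array and were on 1 of 2 at 3 dpf, hbba1 was on 0 of 2 at 6 dpf, and cela1.3 on 0 of 2 at 3 dpf, so the changes of these 6 are open to the floor of the assay.

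Some limma calls named above ended in another setting because the fitted change dropped under 1. When the probes of a gene were averaged these were ahsg2 (0.97), aldh1a2 (-0.99), apoa1a (-0.99), apoea (-0.41), c3a.2 (0.68), cd74a (0.90), cyp17a1 (-0.84), cyp1a (0.64), grna.1 (0.94), igfbp2a (-0.98), irg1l (-0.81), orc6 (-0.71) and tagln (0.88), beside those given with their genes. Under median scaling they were acta2 (0.99), gnat2 (0.84) and lgmn (just under the threshold). Without background subtraction they were cd74a (0.86), col9a1a (-0.92), cyp17a1 (-0.95), gng13a (-0.70), hand2 (-0.98), lss (-0.79), orc6 (-0.74) and slc22a2 (0.97).

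**Figure D5:**
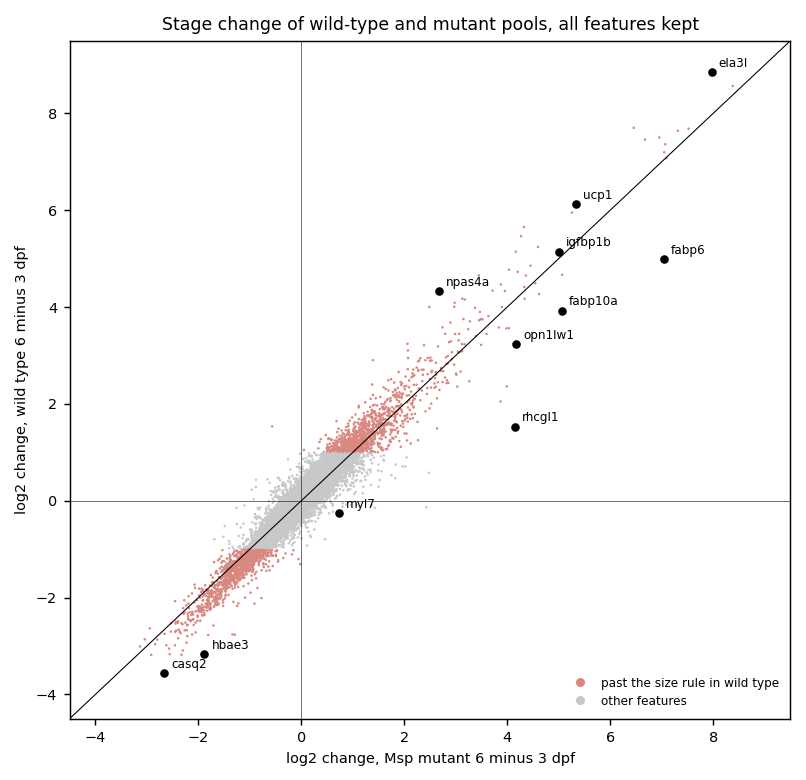
Log2 change, 6 minus 3 dpf, of every kept feature in wild type (vertical axis) against the Msp mutant (horizontal axis), with the line of equal change. Features past the size rule in wild type are light red; the named fabp6, opn1lw1 and rhcgl1 lie to the right of the line and npas4a to its left.

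The mutant pools, which shared the arrays but not the RNA, gave the same direction for 1078 of the 1079 features higher in wild type and for 1179 of the 1179 lower ones. A mutant change of at least 1 in that direction was found for 795 and 856 of them. The matching shares over all features kept were not counted. These counts therefore describe the called features and do not set them apart from the rest. The one exception, zgc:194659, was at -0.57 in the mutant and 1.53 ± 0.03 in wild type. Across features the changes of both genotypes correlated at r = 0.957, as a description, since the pools of a stage lay on the same arrays. Each array holds a single stage, so array and stage cannot be told apart. The change of ela3l was 7.97 in the mutant and 8.86 in wild type, that of fabp6 7.04 and 4.98, and that of kpna2 -2.56 and -3.17.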

How the data were processed

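Total RNA of whole larvae was hybridised to 4 Agilent arrays on 1 slide. Per the file headers, spots were quantified with Agilent Feature Extraction 10.5.1.1 (protocol GE2_105_Dec08, probes annotated to danRer6), whereas the submitters' processing notes name 8.5.1.1. Per spot, the deposited files hold median intensity and median local background for either colour on a linear scale. The deposited series table of mutant to wild-type ratios was not used.

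Intensities were read in Python 3.11.15 (numpy 2.4.6, pandas 2.3.3, matplotlib 3.10.9) and analysed in R 4.3.3 with limma 3.58.1: normexp background correction (offset 50), loess within arrays with controls at weight 0, Aquantile between arrays, and extraction of the channels. Between 5 and 25 outlier spots an array and 9 misaligned control spots were left out. Of 43603 probes, 25173 were named by accession, 3615 by symbol, 1280 by an older symbol and 5277 by the file, and 8258 had no name. The brightest probe stood for a gene, and both dyes were averaged as 1 pool. Of features past the size rule with other detected probes, all of those had the same sign for 516 of 531 higher and 650 of 671 lower ones. A bound sets the bright stage against the lowest signal well above background, per array, or the dim probe's own where higher. For ctrb.2, calcoco1b, creld2, orc6, gng13a and ifitm5 the dim probe's own signal was used. Their bounds therefore equal the measured ratio, with no further margin. The number of arrays limits the precision.

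The members, gene lists and tests were chosen with earlier results of these data known. The genes named were the 12 highest and 12 lowest changes, the 6 highest and lowest bounds, and of each list the first 3 and the 4 largest members, 284 in all. Other genes in the text and figures (such as amy2a, ccnd1, cela1.3, hadhaa, hadhab, hbba1, hbba2, sox9a, sult2st1, tk1 and zgc:194659) were picked with their values in view, and some members are not reported here by name. The limma step was tested on simulated data. Alternatives were the background correction, normalization, probe choice, filters, single dyes, thresholds and leaving out each array.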

Additional observations from a re-analysis of the deposited data

Results flagged for a closer look

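A group of named genes and lists moved in opposite directions in the mutant and in wild type, with the Cy3 and Cy5 changes of each genotype sharing a sign. With 1 pool per genotype and stage that difference was not tested. The largest was myl7, at 0.73 in the mutant and -0.26 in wild type (log2 change, 6 minus 3 dpf). The heat shock gene hsp90aa1.1 stood at 0.19 in the mutant and -0.30 in wild type, the macrophage genes mpeg1.1 and mpeg1.2 at 0.27 and 0.23 in the mutant and -0.22 and -0.30 in wild type. The cadherin cdh17 stood at 0.19 in the mutant and -0.10 in wild type, the hair cell gene s100s at 0.10 and -0.13, and the ribosomal gene faua at -0.13 and 0.12. Among list medians, lens was -0.35 in the mutant and 0.26 in wild type, heart 0.14 and -0.10, and the xenobiotic and oxidative stress list 0.0333 and -0.0361. The wild-type medians of the xenobiotic and oxidative stress list were only -0.00734 in Cy3 and -0.0259 in Cy5. In wild type none of these 7 genes passed the size rule.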

How the results depend on the processing

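The threshold and the background correction set the counts. Of the 2258 features past the size rule (1079 higher, 1179 lower), a threshold of 2 left 364 (203 and 161), and Agilent's processed signals gave 4469 (2265 and 2204), among them 99.5% of the 2258. Limma called 1981 (951 and 1030), with processed signals 4409 (2194 and 2215), and by adjusted p alone 11909 (6103 and 5806). Median scaling gave 1611 that fell. Offset 10 gave 3068 by the size rule, no background subtraction 1633 and the mean of all probes 1748, within 1.5 times the main count. Leaving out each array in turn gave 2281 to 2330 by the size rule (1082 to 1137 higher, 1181 to 1199 lower) and 2010 to 2048 by limma (970 to 984 rose, 1032 to 1064 fell). Of 48 list medians, 46 kept their sign in each setting run. That of endocrine pancreas was -0.044 under median scaling, and that of yolk and lipoprotein export was -0.046 with averaged probes, and between -0.034 and 0.227 when an array was left out (-0.034 without the second 6 dpf array). Of 182 named genes called by limma, 37 lost the call in at least 1 setting. No paired analysis was possible because each stage had 1 wild-type pool and the array numbers come from the order of the samples. With 1 pool per stage, animals, handling and arrays of a stage cannot be told apart, and signals near background limit the dim genes. The cause of these shifts was not tested.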

Other observations

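Further gene groups, put together after the values of this comparison were seen and therefore given without a test, are described by their counts, where 5.54% of all features were higher and 6.05% lower. Immediate early genes, which neurons and other cells switch on within minutes of a stimulus, and inhibitors of the same signals were higher in 22 of 44 kept and lower in 0 (median 1.08). The activity-induced transcription factor npas4a had 11.37 and 11.42 at 6 dpf, against 7.18 and 6.96 at 3 dpf, egr4 had 11.79 and 11.72 at 6 dpf, against 7.70 and 7.65 at 3 dpf, and fosab had 12.16 and 12.32 at 6 dpf, against 8.22 and 8.25 at 3 dpf. Each of the 3 was above its 3 dpf level in both dyes, which the size rule requires of every gene it counts as higher. Changes were 2.68 (npas4a) and 2.98 (egr4) in the mutant, against 4.32 ± 0.19 and 4.09 ± 0.01 in wild type. Genes of muscle protein breakdown and of restrained translation were higher in 12 of 24 kept and lower in 0, with the ubiquitin ligase fbxo32 (atrogin-1) at 11.23 and 11.32 at 6 dpf, against 6.48 and 6.76 at 3 dpf, well above background on 1 of 2 arrays at 3 dpf. The genes eif4ebp3 and eif4ebp3l, whose products bind the cap-binding factor of translation, were at 3.29 ± 0.02 and 2.75 ± 0.00, and trim63a (MuRF1) at 2.66 ± 0.04.

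Ribosome biogenesis genes were higher in 22 of 81 kept and lower in 0 (median 0.57), with the nucleolar helicase ddx21 at 15.36 and 15.27 at 6 dpf, against 12.66 and 12.57 at 3 dpf. Tubulins were lower in 9 of 20 and higher in 0 (median -0.89), with tuba1b at -2.26 ± 0.14. Genes of the secretory pathway of the endoplasmic reticulum were lower in 35 of 86 and higher in 0 (median -0.81), for example ddost and ostc, subunits of the glycosylating oligosaccharyltransferase, at -1.95 ± 0.08 and -2.08 ± 0.17. Of 15 kept genes of serine and one-carbon synthesis 6 were lower and 1 was higher, with the serine synthesis enzymes phgdh and psat1 at -2.45 ± 0.03 and -2.31 ± 0.13 and mitochondrial mthfd2 at -2.53 ± 0.11. Single genes far above the size rule and in none of the lists were the phosphatidate phosphatase lpin1a (4.77 ± 0.21), the arginase arg2 (4.15 ± 0.15) and the Polycomb gene cbx7a (4.17 ± 0.12).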
